A study of Mus musculus with 9 samples.

Results

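The 6 GATA transcription factors and the 2 FOG cofactors of the mouse genome were followed in a map of accessible chromatin. The map came from the pharyngeal mesoderm and hearts of early embryos. The 8 genes are Gata1, Gata2, Gata3, Gata4, Gata5 and Gata6, with Zfpm1, which encodes FOG1, and Zfpm2, which encodes FOG2. A region was counted for a gene when the authors' list gave it that gene's symbol, and 7 of 17164 distinct regions met this rule. Gata3 and Zfpm1 had 2 regions each, Gata4, Gata5 and Zfpm2 had 1 each, and Gata1, Gata2 and Gata6 had none.

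The study addressed how the LIM-homeodomain factor Isl1 and the remodeler Brg1, an ATPase of SWI/SNF complexes, shape open chromatin in heart progenitors. ATAC-Seq, in which the Tn5 transposase cuts open DNA, was performed on pharyngeal mesoderm and hearts dissected from mouse embryos at embryonic day 8.75, with 6 somites. The 9 libraries comprise 3 from wild-type controls (wt), 3 from Isl1-/- embryos and 3 from Isl1Cre+/-/Brg1fl/fl embryos, in which Isl1 regulatory sequences drive the recombinase. The values used here are 1 list of regions common to the 3 wt libraries, with no height and no value per library, so the mutants were not analyzed here and no value has a replicate error. The study's methods count as many embryos as libraries for each genotype, and pooling of embryos is not mentioned. The strain is not given in the sources used here. The sequencing depth is unknown. A gene without a region had none in its name among the regions common to the 3 libraries. A region at such a gene may be listed under another gene, and a lack of regions does not show that its chromatin was closed.

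GATA factors carry zinc fingers that bind the DNA sequence GATA with its flanking bases. They fall into a class known from blood, endothelium, nervous system and lymphocytes (Gata1, Gata2, Gata3) and a class known from heart and endoderm (Gata4, Gata5, Gata6). FOG proteins are larger zinc finger proteins that do not need to touch DNA themselves: they bind a GATA finger and bring corepressors such as CtBP and the NuRD complex. Fog1 works with Gata1 in red cells and platelets, and Fog2 works with Gata4 in the heart, where its loss disturbs septation and the coronary vessels.

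The dissected tissue holds several cell types, and the list was compared with their marker genes. Regions were assigned to 1 of 10 heart muscle genes (Hand2, 1 region). Of the genes known from pharyngeal mesoderm, Isl1 had 9 regions, Eya1 had 8 and Fgf10 had 4, each with 1 within 1 kb of its start, whereas Tbx1, Fgf8 and Tcf21 had none. Nkx2-5, Tbx5, Tnnt2, Myh6, Myh7, Actc1, Myl7, Myl2 and Ttn, the other heart muscle genes, had none. A region was also assigned to 5 of 7 markers of endothelium and 3 of 6 of endoderm. For neural tissue and neural crest it was 3 of 6, and for blood 2 of 8. In these 4 lists, 2, 0, 2 and 0 genes had a region within 1 kb of the assigned start. The blood marker Itga2b, with no region in its name, had an annotated start inside a region. Over all coding genes, 49.3% had a region and 40.6% had one within 1 kb, so these counts do not show which cell types were present. The part of each cell type in the regions described below was not tested, and a region in few cells cannot be told apart from a weakly open region in many.

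Most of the members had an open start, 1 of them under another gene's name. Of the 8 genes, 5 had an assigned region, compared with 49.3% of 21031 coding genes. In 4 of them a region lay within 1 kb of the assigned transcription start site (TSS), compared with 40.6% of coding genes, and 2 had 2 or more regions, compared with 12.9%. When annotated starts were compared directly with all regions, 5 of the 8 genes (Gata3, Gata5, Gata6, Zfpm1 and Zfpm2) had a start inside a region, compared with 47.0% of 20186 coding genes of the annotation. With 8 genes these counts are close to the background and are given as a description, with no test.

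**Figure D1:**
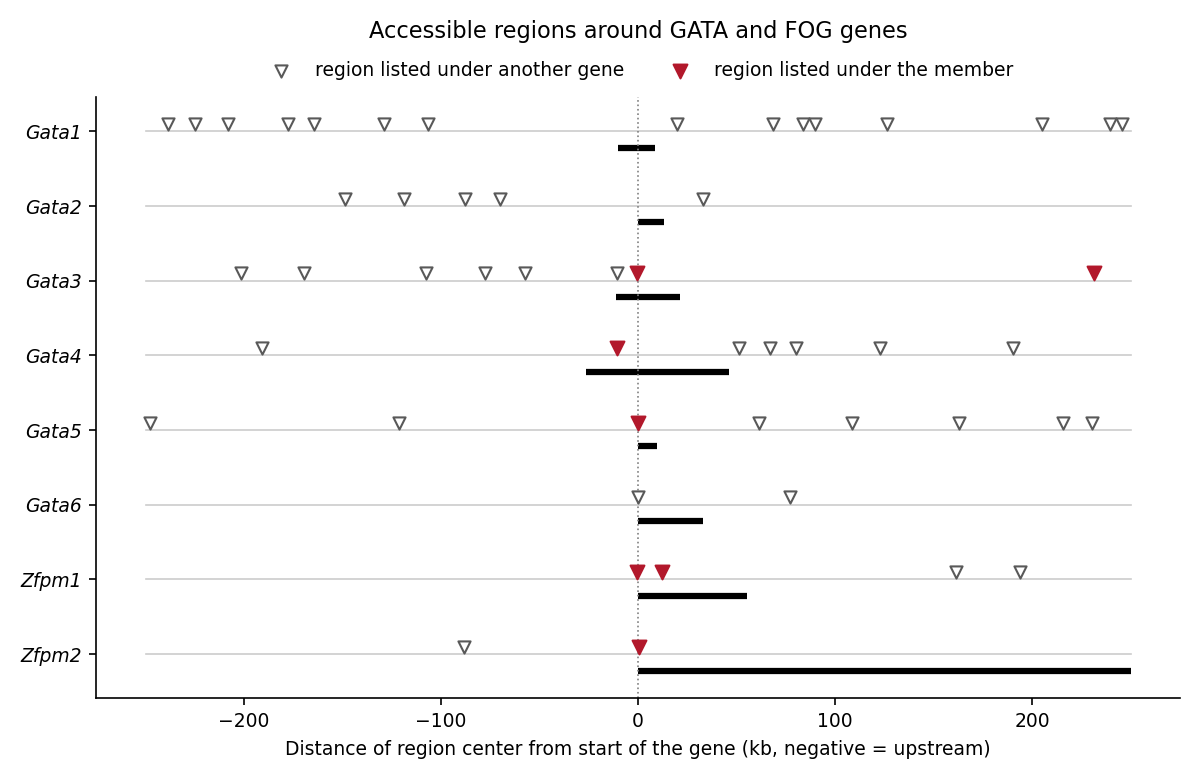
Centers of accessible regions within 250 kb of the start of each gene (0 kb, the outermost start of a coding sequence in the consensus set), oriented so that transcription runs to the right, with the gene body as a black bar. Filled triangles are regions listed under the gene and open triangles are regions listed under another gene. Gata3, Gata5, Zfpm1 and Zfpm2 have a filled triangle at the start, Gata6 has an open one, and Gata1 and Gata2 have none there.

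Among the genes of the heart and endoderm class, Gata5, Gata4 and Gata6 each had a different arrangement. Gata5, an endocardial and endodermal factor, had 1 region of 1330 bp (chr2:180068520-180069849). Its center lay 200 bp downstream of the assigned TSS, and it contained both annotated starts of the gene (180069404 and 180069259). Its midpoint lay in an untranslated part of an exon. The nearest other regions lay 61023 bp away, at the start of Cables2, and more than 100 kb away on the other side, listed under Slco4a1.

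Gata4, a core factor of heart muscle, had 1 region, of 1049 bp (chr14:63874347-63875395), and no region at its main start. The region lay 10763 bp upstream of the assigned TSS and 10239 bp, edge to start, from the nearest of the 3 starts grouped between 63864085 and 63864108. It fell in an intron of 3 longer transcripts that begin further upstream, at 63889961 and 63890529, and contained no annotated start of any gene. Base composition set it apart from other distal regions. Its CpG dinucleotide frequency was 8.01 per 100 bp, higher than in 98.7% of the 6740 regions more than 10 kb from their assigned TSS, where the median was 1.25, and above the median of 5.93 in the 9083 regions within 1 kb. GC content was 61.8%, higher than in 97.9% of the distal regions. The 300 bp at its center hold 41 CpG dinucleotides and are shown for that reason, as the plus strand of NCBIM37 (the same build as mm9), at chr14:63874722-63875021, with each CG in capitals:
Gata4 region, center: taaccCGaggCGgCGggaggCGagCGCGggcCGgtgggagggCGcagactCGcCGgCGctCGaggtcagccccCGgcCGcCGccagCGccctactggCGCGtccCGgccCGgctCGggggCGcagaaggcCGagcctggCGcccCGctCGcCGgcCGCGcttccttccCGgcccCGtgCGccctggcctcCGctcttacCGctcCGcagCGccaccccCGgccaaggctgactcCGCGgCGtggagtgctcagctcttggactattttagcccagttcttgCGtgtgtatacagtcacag

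The same region held 4 matches to the GATA motif, defined here as GATA with A or T before it and A or G after it on either strand, of which 2 overlapped. At least 4 matches were found in 12.6% of distal regions, whatever their width. The overlapping pair began 20 bases into the following 60 bp, at chr14:63875007-63875066 on the plus strand, with the matched bases in capitals:
Gata4 region, overlapping GATA matches: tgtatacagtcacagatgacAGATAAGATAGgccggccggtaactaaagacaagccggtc

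The middles of the 4 matches lay at -370, 159, 164 and 419 bp from the center, and none of the matches was in the central 300 bp. Neither a match nor its absence shows whether a factor was bound.

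Gata6, a factor of heart, vessels and gut, had no region in its name, but its only annotated start (11052508, plus strand) was inside a region of 1569 bp (chr18:11051936-11053504). The center of this region was 212 bp downstream of the Gata6 start. The region was listed under 1010001N08Rik, a long noncoding gene on the opposite strand, at a distance of -155 bp, and it also contained an annotated start of that gene. This situation was not rare. Of 9480 coding genes with a start inside a region, 921 (9.72%) had no region in their name. A further region of 573 bp, also listed under 1010001N08Rik, lay 77244 bp downstream of the Gata6 start, beyond the 3′ end of the gene. No other region had its center within 250 kb of Gata6.

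The genes of the other class differed as widely. Gata3, which acts in the sympathetic nervous system, the inner ear, the kidney and T cells, had 2 assigned regions. The one at its start was 2176 bp wide (chr2:9799760-9801935), wider than 93.3% of regions within 1 kb of a TSS, and contained the start of the main transcript (9800227, minus strand). Its CpG frequency of 4.23 per 100 bp was below the median of 5.93 for that class. A second cluster of annotated Gata3 starts at 9811629 and 9811661 was inside a region of 1133 bp (chr2:9810584-9811716) listed under 9230102O04Rik, a noncoding RefSeq gene whose own assigned start was 17 bp from the center. Starts of Gata3 were thus inside 2 regions, of which 1 carried its name. A further 2 regions listed under 9230102O04Rik, of 978 and 768 bp, lay upstream, at -46092 and -66047 bp from the outermost Gata3 start, in introns of the neighboring gene Taf3.

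The other assigned region of Gata3 was intergenic, 231437 bp downstream of the assigned TSS and 1025 bp wide (chr2:9568278-9569302). The nearest coding gene on that side, Celf2, lies 2776356 bp from the Gata3 gene. The central 300 bp of this region held 2 GATA matches, which was the case for 8.66% of the distal regions and 4.47% of all regions, and the whole region held 3. They are shown in capitals on the plus strand, at chr2:9568641-9568940:
Gata3 distal region, center: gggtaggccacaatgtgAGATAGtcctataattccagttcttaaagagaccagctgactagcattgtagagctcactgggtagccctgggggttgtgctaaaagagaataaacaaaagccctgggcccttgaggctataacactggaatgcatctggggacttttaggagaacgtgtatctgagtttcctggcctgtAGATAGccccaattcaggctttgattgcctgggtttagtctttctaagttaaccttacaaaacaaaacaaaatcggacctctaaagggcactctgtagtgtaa

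Gata1 and Gata2, which act in blood progenitors and in red cell and megakaryocyte differentiation, had no region at any annotated start. The nearest region to Gata1 was at the start of Hdac6, with its center 16267 bp from the closest of 3 annotated Gata1 starts. The nearest to Gata2 was listed under Dnajb8, with its center 28055 bp downstream of the second of 2 Gata2 starts, beyond the 3′ end of the gene. Each gene sat in a stretch without regions, of 125651 bp for Gata1 and 101861 bp for Gata2. These stretches were not exceptional, since the median gap between neighboring regions was 72839 bp, and 67.3% and 60.8% of 17143 gaps were shorter. Around Gata1 the regions lay at the starts of other genes. All 5 within 100 kb of its starts (Pim2, Slc35a2, Timm17b, Hdac6 and Suv39h1) contained an annotated start of the gene they were listed under.

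The starts of these 2 genes differed in sequence. Within 500 bp of a start, CpG frequency was at most 1.8 per 100 bp for Gata1 and 8.79 for Gata2. The 300 bp upstream of a start of each, read in the direction of transcription, are shown with each CG in capitals, for Gata1 at chrX:7545037-7545336 (minus strand, 2 CpG) and for Gata2 at chr6:88143585-88143884 (plus strand, 26 CpG):
Gata1: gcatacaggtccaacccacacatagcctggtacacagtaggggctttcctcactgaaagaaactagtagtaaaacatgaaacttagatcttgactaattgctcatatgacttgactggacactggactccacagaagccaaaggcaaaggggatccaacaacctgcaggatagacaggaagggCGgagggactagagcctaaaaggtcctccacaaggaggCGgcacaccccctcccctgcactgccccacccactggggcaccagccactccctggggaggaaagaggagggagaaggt
Gata2: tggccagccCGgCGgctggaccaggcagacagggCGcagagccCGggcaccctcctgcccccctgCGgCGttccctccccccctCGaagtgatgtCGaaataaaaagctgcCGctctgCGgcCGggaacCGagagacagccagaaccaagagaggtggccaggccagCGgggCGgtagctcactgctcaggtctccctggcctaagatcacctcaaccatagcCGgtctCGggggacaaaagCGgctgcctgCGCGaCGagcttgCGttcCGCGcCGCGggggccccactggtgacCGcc

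Coding genes were divided into 10 groups of equal size by the highest CpG frequency at their starts, and the share with a region center within 1 kb of a start, 47.5% over all of them, went from 0.446% in the lowest to 76.9% in the highest. Gata1 was in group 3, where 10.3% of genes had such a region. Gata2 was in group 9, where 74.3% did, and Gata4 (6.29 per 100 bp) was in group 7, where 71.5% did. Neither Gata2 nor Gata4 had one. The other genes with CpG-rich starts had one, namely Gata6 (6.39 per 100 bp, group 7), Zfpm2 and Gata5 (7.59 and 7.99, group 8) and Zfpm1 (13.5, group 10). Gata3 had one with an intermediate value of 4.6 (group 5, where 62.5% of genes did).

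**Figure D2:**
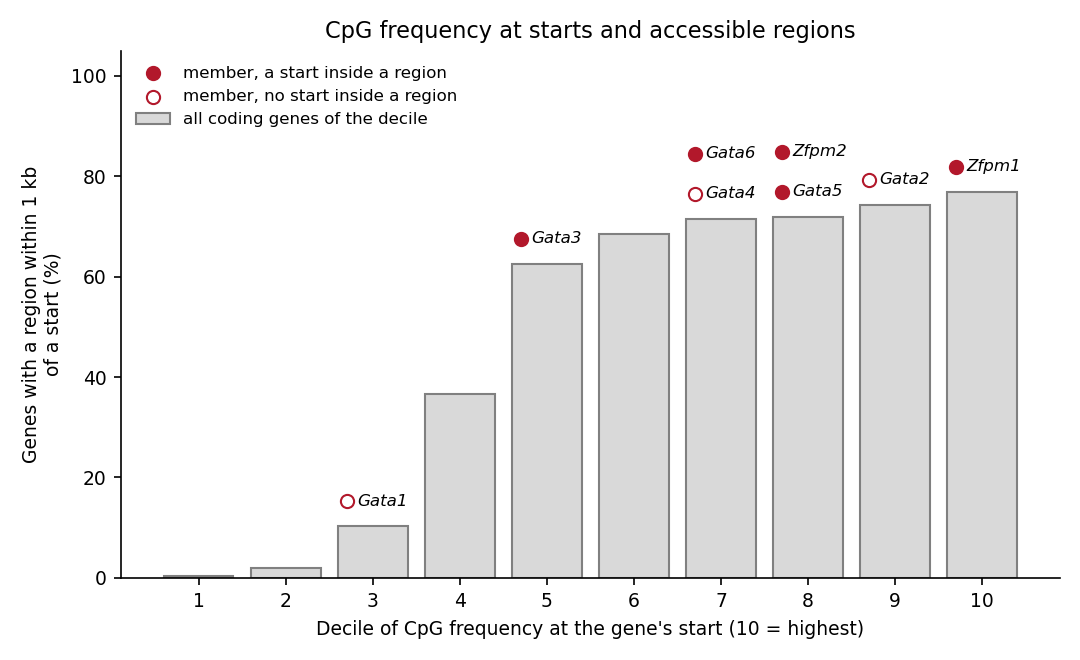
Bars show the percentage of coding genes with a region within 1 kb of a start, by decile of the highest CpG frequency within 500 bp of their starts. Members are placed above the bar of their decile, filled where a start is inside a region and open where none is, and their height carries no value. Gata1 is open in a decile of 10.3%, whereas Gata2 and Gata4 are open in deciles of 74.3% and 71.5%.

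Both FOG genes had an open start. Zfpm2, the cardiac cofactor, had 1 region of 2339 bp (chr15:40485750-40488088), the widest of the 7 and wider than 95.4% of regions within 1 kb of a TSS. Its center was 331 bp downstream of the assigned TSS (40486588), in an untranslated part of an exon. The gene extends over 449551 bp, and this region was the only one with its midpoint inside it. Among 736 coding genes between 224775 and 899102 bp long, the median was 2 regions in the body, and 45.8% had at most 1. The 2 internal annotated starts of Zfpm2, at 40496536 and 40583293, lay outside any region and had CpG frequencies of 0.599 and 0.899 per 100 bp, compared with 7.59 at the main start.

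Zfpm1, the hematopoietic cofactor, had 2 regions. The first, of 1798 bp (chr8:124804650-124806447), was centered upstream of the assigned TSS, at -493 bp, and contained the only annotated start (124806039), and its CpG frequency was 8.34 per 100 bp. The second, of 792 bp (chr8:124818044-124818835), lay in an intron, 12398 bp downstream of the assigned TSS, with a CpG frequency of 1.26 per 100 bp, at the median of 1.25 for distal regions. It was the narrowest of the 7, and 26.4% of distal regions were narrower. Its central 300 bp are shown because they hold the only AGATAA match in the center of a member's region, read here on the plus strand as its reverse complement TTATCT, in capitals, at chr8:124818290-124818589:
Zfpm1 intronic region, center: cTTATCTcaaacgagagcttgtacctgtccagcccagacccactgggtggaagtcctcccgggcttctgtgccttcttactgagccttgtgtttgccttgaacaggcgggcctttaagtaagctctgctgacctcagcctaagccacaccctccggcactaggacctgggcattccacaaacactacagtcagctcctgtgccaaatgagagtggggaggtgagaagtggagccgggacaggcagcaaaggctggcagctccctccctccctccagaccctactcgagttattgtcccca

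The 7 regions were then compared by width and distance. Widths ranged from 792 to 2339 bp. Their median was 1330 bp, and that of all regions was 1123 bp. The 4 regions at starts were 1330, 1798, 2176 and 2339 bp wide, all at or above the median of 1294 bp for regions within 1 kb of a TSS. The 3 regions further away were 792, 1025 and 1049 bp wide, compared with a median of 937 bp for regions more than 10 kb from a TSS. Those 3 of 7 regions lay more than 10 kb from the assigned TSS, compared with 39.3% of all regions, and 1 of them beyond 100 kb. Called width grows with the number of reads and includes the tag extension used in peak calling.

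**Figure D3:**
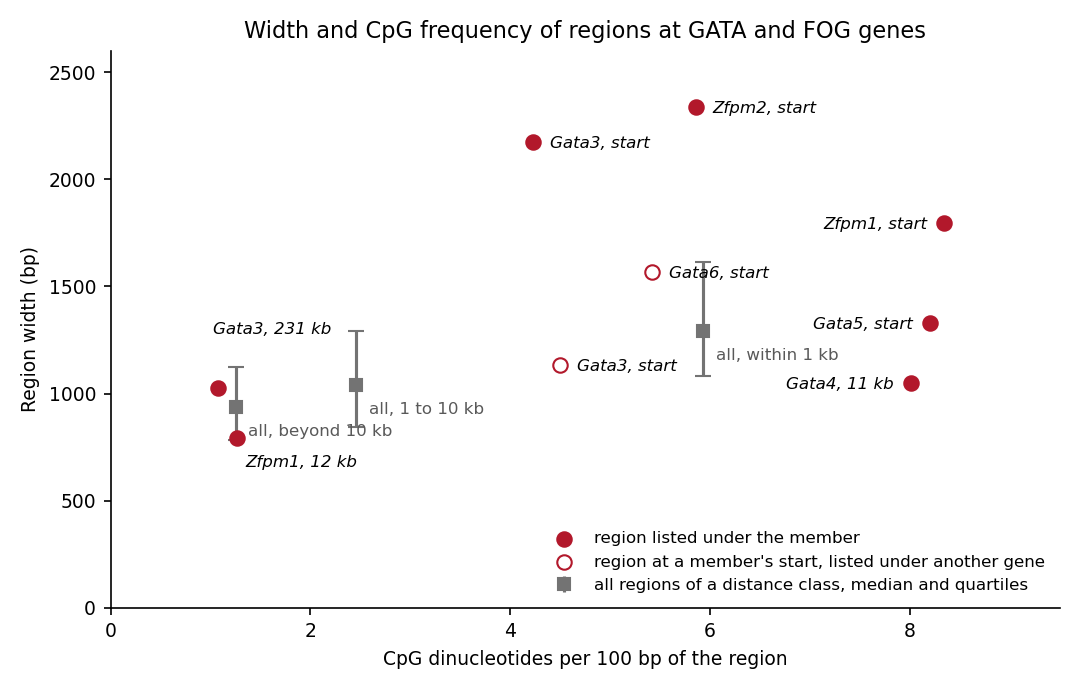
Region width in bp against CpG dinucleotides per 100 bp for the 7 regions listed under a member (filled, with the distance to the assigned TSS) and for the 2 regions at a Gata3 or Gata6 start that were listed under another gene (open). Squares and bars give the median and quartiles of width of all regions in 3 distance classes, placed at their median CpG frequency. The Gata4 region lies among the start regions in CpG frequency although it is 10763 bp from the TSS.

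Motifs were counted in the central 300 bp of each region, on both strands. A GATA match was present in 3 of the 7 regions, namely the distal Gata3 region and both Zfpm1 regions, compared with 22.5% of all regions, 36.4% of those more than 10 kb from a TSS and 11.4% of those within 1 kb. In whole regions 6 of 7 had a match, compared with 71.4% of all, and the Gata5 region had none. The open region at the Gata6 start, listed under the noncoding gene, held 5 matches. Their middles lay between 216 and 345 bp from the center of the region, on the side of the Gata6 gene body. At least 5 were found in 2.51% of regions within 1 kb of a TSS. A LIM-homeodomain motif (CTAATG or CTAATT) was present in the center of 1 region, at the Gata3 start. Its share was 13.5% of all regions and 5.86% of those within 1 kb of a TSS. An E-box (CAGATG) was present in the center of 1, the distal Gata3 region. Its share was 15.0% of all regions and 22.2% of those more than 10 kb from a TSS. The NKX motif CACTTNA, the T-box motif AGGTGTNA and the MEF2 motif (CTA and TAG with 4 bases between them) were found in the center of 0 of 7, and in 9.78%, 1.97% and 2.66% of all regions. Apart from MEF2, whose 4 free bases can hold part of a GATA or LIM-homeodomain word, the words of 1 motif do not contain those of another. Such short words recur throughout the genome, and no difference is read from 7 regions.

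The surroundings of the 8 genes were compared between the neighboring coding genes. The interval from the preceding to the following coding gene was 2830 kb for Gata3, 1500 kb for Zfpm2 and 973 kb for Gata6, and between 56.3 and 183 kb for the other 5. Gata3 had 8 regions in this interval, or 2.82 per Mb, Gata6 had 3 (3.08 per Mb) and Zfpm2 had 6 (3.99 per Mb), compared with 6.71 per Mb over the sequenced genome. In the 5 short intervals the density was between 11.2 and 23.7 per Mb, with at most 3 regions in each, several of them at the starts of the neighbors. In all 8 intervals there were 27 regions, of which 7 were listed under the member and 20 under other genes. All 3 regions in the Gata6 interval and 6 of 8 in the Gata3 interval were listed under other genes, compared with 0 of 2 in the Zfpm1 interval.

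Partner genes were compared with the members by lists of known function. Of the FOG corepressors, 10 of 12 genes had a region and 9 had one within 1 kb of the TSS. These included the deacetylase Hdac2 and the histone chaperone Rbbp7, with 3 regions each, and Ctbp2 with 2. Over all coding genes the shares were 49.3% and 40.6%, which stand beside each list of this paragraph. The corepressors had a median of 10.9 CpG per 100 bp, in group 10 of the division by CpG frequency. In that group 74.4% of genes had an assigned region, and the difference was not tested. Other genes with a GATA-type finger had a region in 7 of 9 cases, led by the repressor Trps1 with 6 and Rere with 3. Mta1, Mta2, Gatad2a and Gatad2b are in both this list and that of the FOG corepressors. None of the Trps1 regions lay within 1 kb of its assigned TSS, although another annotated start of the gene was inside a region. Partners of GATA factors in the heart, DNA-binding factors and cofactors, had one in 9 of 13 cases, with 24 regions in all. Most of these were listed under Isl1 (9), Mef2c (5) and Tbx20 (4). The cofactor Myocd had 1, whereas Nkx2-5, Tbx5, Hand1 and the cofactor Smarcd3 had none. For Smarcd3 the paper reports ATAC-Seq signal that decreased in Isl1 knockout embryos. Here, none means only that no region of the common list carried the gene's name. Partners in blood had one in 7 of 12, with 10 regions in all and 2 each at Fli1, Runx1 and Tal1, and 4 of the 12 had one within 1 kb. Coactivators had one in 3 of 5 cases (Crebbp, Med1 and Smarca4, with 1 each). The medians of the other GATA-finger genes, heart partners, blood partners and coactivators were 9.09, 5.29, 6.59 and 10.3 CpG per 100 bp. These fall in groups 9, 6, 7 and 10, where 72.0%, 64.6%, 66.6% and 74.4% of genes had an assigned region. The part of base composition in these counts was not tested.

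Genes known as GATA targets had few regions at their starts. A region was assigned to 4 of 10 heart targets, 3 of 8 blood targets and 3 of 7 endoderm targets, compared with 49.3% of all coding genes. It lay within 1 kb of the assigned TSS in 1, 0 and 0 of them, compared with 40.6%. The median CpG frequencies of these lists fall in groups 3 and 4 of the division by CpG frequency, where 10.3% and 36.7% of genes had a region center within 1 kb of any start. Slc8a1, the sodium-calcium exchanger, had 5 regions, and Foxa2, an endoderm regulator, had 4. In these 3 lists starts had a median of 2.25, 1.7 and 2.6 CpG per 100 bp, compared with 10.9 for the FOG corepressors and 6.34 for the 6 GATA genes, and the part of base composition in the difference was not tested. In related families of developmental regulators, 8 of 17 T-box genes had a region (18 regions in all), as did 3 of 9 Nkx2 and Nkx3 genes (3 regions), compared with 3 of 6 GATA genes (4 regions). Nkx2-2 and Gata6, with no region in their names, each had an annotated start inside a region. The difference between the families was not tested.

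**Figure D4:**
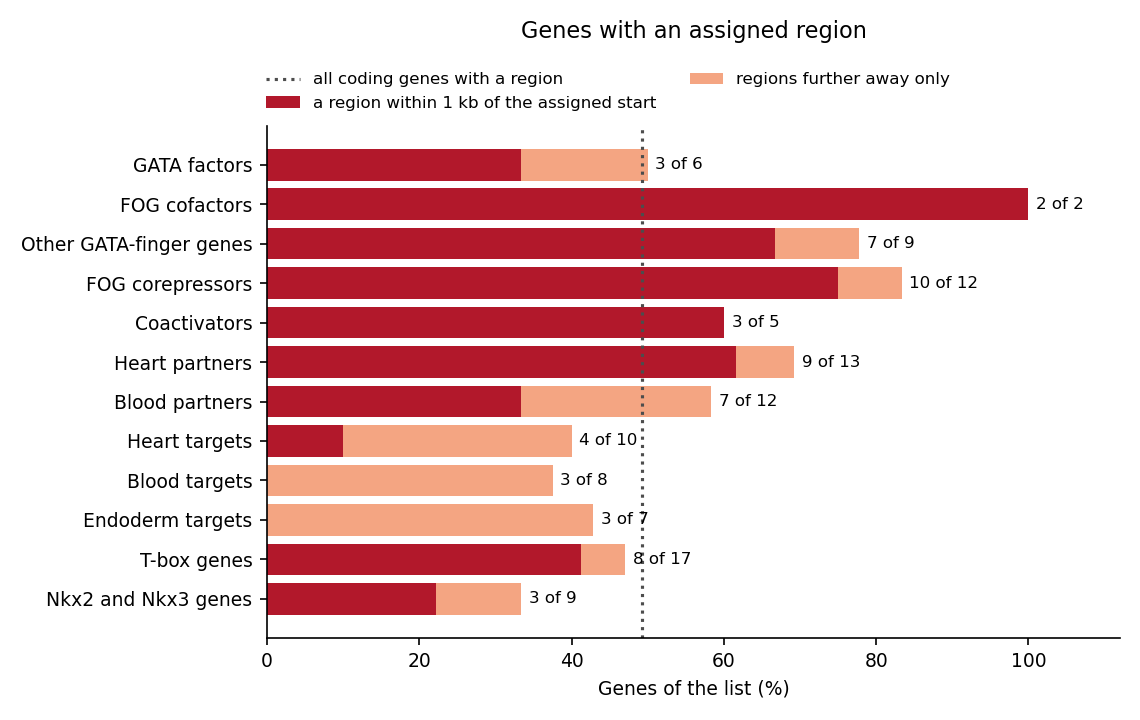
Percentage of the genes of each list with an assigned region, split into genes with a region within 1 kb of the assigned TSS (dark) and genes with regions further away only (light), with the number of genes beside each bar. The dotted line is the share of all coding genes with a region, 49.3%. Some genes are in more than 1 list, such as Klf1 and Gfi1b in both blood lists. FOG corepressors reach 10 of 12, and the 3 target lists lie below the line.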

How the data were processed

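ATAC-Seq was performed on the pharyngeal mesoderm and heart of staged embryos, and groups follow the labelled genotype. According to the study's methods, the authors mapped reads to mm9 with bowtie2, kept proper primary pairs (samtools) and discarded duplicates (Picard 1.136). MACS14 peaks were called in each library with a set shift and no fragment model. They removed blacklisted peaks and kept regions that overlapped in the 3 wt libraries with bedtools 2.15. That tool returned intervals of its first input, so the edges come from a single library. A Tn5 offset is not mentioned, and edges do not mark insertions. The deposited columns are positions and distances in bp, a transcript and a symbol. The rule that assigned genes is not stated for these regions.

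Of 17432 rows, 17164 distinct regions were kept. Positions were read as 1-based, and no regions overlapped. No column of values was left unmapped (0 columns). Sequence came from NCBIM37, and gene structure from the GENCODE annotation of that build. All 8 members were matched there and in the GRCm38.p6 RefSeq table, from which names and gene types were taken but no coordinates. Coding genes were those with a curated coding transcript in that table (21031, of which 20186 were in the annotation). Motif and composition counts were tested on simulated data, using Python 3.11.15, numpy 2.4.6 and pandas 2.3.3. All 8 members were named, with flanking coding genes and up to 3 genes with the most regions in a list. Other genes, among them markers without a region and cofactors, were named after their values were seen. The full count for the pharyngeal mesoderm markers is not reported here. Members and lists were chosen with earlier results of these data known. No test was run, since the list has no value per library. Alternatives were another rule for tying regions to genes, wider regions only, other distances, and other motif windows and words.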

Additional observations from a re-analysis of the deposited data

How the results depend on the processing

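Of 16 recomputed values, 9 stayed within 1.5 times the reported one. The number of regions counted for the 8 genes was 7 by the deposited symbol, 13 by the nearest coding start of the annotation, 26 for all regions within 100 kb of a start, and 4 among the wider 8592 regions (median width or more). The nearest coding start tied 6 of the 8 genes to a region, with Gata6 added, and by this rule none of the 8 lost its region. Among the wider regions 4 of the 8 genes had one, since the only Gata4 region (1049 bp) was narrower than the median of 1123 bp. With a distance of 100 kb in place of 10 kb, 1 region was distal. A GATA match was found in 6 of 7 whole regions. In the central 300 bp it was found in 1 of 7 regions with AGATAA alone, and in 1 of the 4 wider regions. Merging overlapping regions changed nothing because none overlap. No paired analysis was possible because the 3 wt libraries contribute to 1 common list, in which no value belongs to a replicate, and no library could be left out. Since the list has no score, width stood in for peak strength. Widths, and the absence of a region at Gata1, Gata2 or the Gata4 start, depend on a sequencing depth that is not known.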
